A study of Homo sapiens with 6 samples.

Results

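The genes described here are the cancer-testis and germline genes counted in LN229 cells with and without PARP3. They were taken by symbol from the protein-coding genes of the table, as all members of the MAGEA, MAGEB, MAGEC, GAGE, PAGE, XAGE, CTAG, SSX, CSAG, CT45A, SPANX, BAGE, TDRD and PIWIL families together with SAGE1, RNF17, DDX4, DAZL, MAEL, SYCP1, SYCP3, PABPC5 and BRDT. The rule found 69 genes of the 33841 listed, 52 of them on the X chromosome and 17 on autosomes. It used no measured value, but the genes were chosen with earlier results of these data known. The shares of called genes below therefore describe the list and do not test it. DAZL, SYCP1 and BRDT were not analysed here, and 13 further rows with such symbols are pseudogenes or non-coding RNAs and stayed outside the 69. The symbols also bring in 4 genes expressed in many tissues and not in the germline alone (SSX2IP, CTAGE5, TDRD3 and TDRD7), which are kept in every count.

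RNA was sequenced from LN229 cells, an established human glioblastoma cell line, either parental (WT) or with PARP3 disrupted by a pair of Cas9 nickases (PARP3-/-), with 3 biological replicates of each genotype. Both genotypes were grown in the same serum-containing medium without further treatment. The PARP3-/- cells derive from single-cell clones, and which clone was sequenced is not given in the sources used here, so loss of PARP3 and descent from a clone cannot be told apart. In bulk RNA, fewer expressing cells and less RNA per expressing cell cannot be told apart either.

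Cancer-testis genes are transcribed in the germ cells of the testis, silent in most adult tissues and often active again in tumours, where several of their products are recognised by T cells. Many lie on the X chromosome in recently duplicated clusters, and in somatic cells their promoters are held silent by DNA methylation and repressive chromatin. PIWIL, TDRD, MAEL, RNF17 and DDX4 proteins act in the germline piRNA pathway, which silences transposons, while SYCP3 builds the axis of meiotic chromosomes. PARP3 is an ADP-ribosyltransferase of the DNA damage response.

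PARP3 itself was counted 1273, 942 and 995 times in WT replicates 1 to 3 and 574, 1004 and 736 times in PARP3-/- replicates 1 to 3. The 2 genotypes overlapped, with a log2 fold change of -0.42 (edgeR quasi-likelihood test, adjusted p = 0.307, and 0.0469 with the replicate number as a block), so the count of PARP3 does not by itself check the labels. Markers of the line (VIM, NES, CD44, S100A6, EGFR, SOX2 and OLIG2) were present in every library, whereas the glial marker GFAP had 1 to 17 counts. Of the 9 markers of postmeiotic germ cells, 5 were listed, with at most 2 counts in any library. PTPRC, EPCAM and PECAM1, which mark blood, epithelial and endothelial cells, had at most 4 counts. The libraries of replicate 1 stood apart from the others of their genotype in both genotypes. In a chi-square comparison of counts over genes, the statistic per degree of freedom was 93.7 and 64.3 between WT replicate 1 and the other WT libraries against 10.9 between those, and 60.6 and 48.7 against 3.80 in PARP3-/-.

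Of the 69 genes, 31 had enough counts to be tested. Their promoters are shown first for the members on which the results turn, since near-identical or related copies differed between the genotypes. The sequences are from RefSeq on GRCh38.p14, 250 bases before to 50 after the annotated start, on the strand of the gene, with each CpG in capitals because methylation of CpG is a known means of silencing these genes. No methylation was measured here. PAGE5 (chrX:55220096-55220395, plus strand) was almost lost in PARP3-/- cells and PAGE2 (chrX:55088768-55089067, plus strand) was not called, although 78.3% of the 300 positions were identical in an alignment of both windows.
PAGE5: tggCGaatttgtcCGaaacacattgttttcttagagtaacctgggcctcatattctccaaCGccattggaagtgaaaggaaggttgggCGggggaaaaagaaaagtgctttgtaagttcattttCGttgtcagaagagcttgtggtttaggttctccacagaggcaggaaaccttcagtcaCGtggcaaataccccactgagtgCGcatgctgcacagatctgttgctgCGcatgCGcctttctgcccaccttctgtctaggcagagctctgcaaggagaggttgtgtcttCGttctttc
PAGE2: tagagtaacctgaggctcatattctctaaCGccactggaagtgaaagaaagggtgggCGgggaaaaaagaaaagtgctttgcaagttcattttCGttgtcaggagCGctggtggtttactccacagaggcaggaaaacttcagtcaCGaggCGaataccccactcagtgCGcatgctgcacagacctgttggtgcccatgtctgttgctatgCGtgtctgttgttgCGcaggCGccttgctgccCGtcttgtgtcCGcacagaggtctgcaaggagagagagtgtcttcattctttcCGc
XAGE2 (chrX:52368771-52369070, plus strand) fell and XAGE3 (chrX:52868034-52868333, minus strand) rose, with 66.3% of positions identical.
XAGE2: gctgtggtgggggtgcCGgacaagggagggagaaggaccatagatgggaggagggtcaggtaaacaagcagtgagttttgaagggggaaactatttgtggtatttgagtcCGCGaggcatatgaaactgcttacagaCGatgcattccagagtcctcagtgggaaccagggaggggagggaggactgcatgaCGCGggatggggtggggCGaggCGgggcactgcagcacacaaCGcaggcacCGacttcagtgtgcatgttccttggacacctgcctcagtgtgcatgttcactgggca
XAGE3: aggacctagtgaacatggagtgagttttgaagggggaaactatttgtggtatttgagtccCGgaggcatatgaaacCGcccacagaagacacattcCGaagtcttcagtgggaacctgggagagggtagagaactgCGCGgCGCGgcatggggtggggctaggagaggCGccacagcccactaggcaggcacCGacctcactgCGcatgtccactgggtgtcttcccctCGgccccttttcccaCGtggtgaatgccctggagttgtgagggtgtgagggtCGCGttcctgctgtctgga
GAGE12J (chrX:49321787-49322086, plus strand), which fell, is shown for all 3 GAGE genes whose windows were identical. GAGE2A, which rose, and GAGE12H, which was not called, have the same 300 bases.
GAGE12J: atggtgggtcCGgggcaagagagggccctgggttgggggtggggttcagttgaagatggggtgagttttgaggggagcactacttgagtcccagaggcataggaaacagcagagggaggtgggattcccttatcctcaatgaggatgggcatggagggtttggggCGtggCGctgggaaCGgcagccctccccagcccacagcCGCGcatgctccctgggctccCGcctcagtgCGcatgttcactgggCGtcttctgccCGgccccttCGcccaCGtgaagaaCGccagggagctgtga
MAGEC2 (chrX:142205241-142205540, minus strand) is the member with the deepest loss to 0 counts.
MAGEC2: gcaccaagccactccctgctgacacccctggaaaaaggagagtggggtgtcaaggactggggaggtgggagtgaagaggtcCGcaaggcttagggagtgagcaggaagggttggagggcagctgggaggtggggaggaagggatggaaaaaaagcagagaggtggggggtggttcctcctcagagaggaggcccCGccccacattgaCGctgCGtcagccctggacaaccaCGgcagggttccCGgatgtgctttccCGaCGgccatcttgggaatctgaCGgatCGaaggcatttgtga
RNF17 (chr13:24763919-24764218, plus strand) and PABPC5 (chrX:91434589-91434888, plus strand) are the members with the highest fold increases.
RNF17: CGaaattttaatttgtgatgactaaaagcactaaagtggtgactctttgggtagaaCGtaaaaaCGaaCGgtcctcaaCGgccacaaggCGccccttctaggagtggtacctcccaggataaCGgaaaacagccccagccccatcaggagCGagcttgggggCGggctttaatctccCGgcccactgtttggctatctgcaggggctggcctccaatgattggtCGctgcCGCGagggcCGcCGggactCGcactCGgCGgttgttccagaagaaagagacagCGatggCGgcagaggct
PABPC5: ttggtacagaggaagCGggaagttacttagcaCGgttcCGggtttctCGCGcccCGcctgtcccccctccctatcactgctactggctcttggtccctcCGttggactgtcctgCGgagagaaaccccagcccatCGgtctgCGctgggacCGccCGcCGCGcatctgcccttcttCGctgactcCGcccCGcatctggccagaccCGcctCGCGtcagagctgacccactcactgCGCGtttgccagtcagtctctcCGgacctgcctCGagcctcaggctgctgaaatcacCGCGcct

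Promoters were found for 60 of the 69 genes and for 27 of the 31 tested. The windows held a median of 11.5 CpG for the 8 matched genes that fell (range 9 to 21), 20 for the 5 that rose (range 13 to 26) and 13.5 for the 14 not called (range 5 to 50), beside a median of 14 over all 35116 promoters. Some RefSeq windows lie away from the start of the counted gene, among them those of MAGEA11, GAGE1, SAGE1 and CT45A10. The MAGEA11 window, with the 21 CpG, begins at X:149711810, inside the counted gene (X:149688228-149717266). The E-box CACGTG, read on both strands, was present in 3 of the 8 (GAGE12J, PAGE1, PAGE5) and in 2 of the 5 (GAGE2A, XAGE3). It was also in 2 of the 14 (GAGE1, GAGE12H), and in 7.26% of all promoters. The windows of GAGE12J, GAGE2A, GAGE1 and GAGE12H are near-identical (97.7% to 100% of positions). Their matches to this motif and the next therefore repeat the same sequence and are not independent. The E2F6-type motif GCGGGA occurred in 2 of 8, 2 of 5 and 7 of 14, with 26.9% of all promoters. The ETS motif CCGGAAG was in none of the called genes and in 2 of the 14, with 10.3% of all promoters. Those 2 are CT45A10 and SAGE1, which both hold GCGGGA as well. Their windows overlap on opposite strands, so the matches may be the same sites counted for both genes. These letter matches are a description, and none was tested.

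The 69 genes moved in both directions. At an adjusted p under 0.05, 9 of the 31 tested genes fell in PARP3-/- cells (29.0%) and 5 rose (16.1%), beside 3.33% of all 17144 tested genes that fell and 1.36% that rose. The genes that fell were PAGE5, CTAG2, PAGE1, XAGE2, MAGEC2, GAGE12J, CSAG1, MAGEA12 and MAGEA11, all on the X chromosome. Those that rose were PABPC5, RNF17, XAGE3, GAGE2A and MAGEB2. The median log2 fold change of the 31 genes was -0.07 (-0.0062 over all tested genes), and the summed level of the 69 genes was 862 ± 98.7 CPM in WT and 819 ± 94.5 in PARP3-/- (SD, n = 3; CPM, counts relative to the TMM-scaled library size). The 3 libraries of each genotype did not overlap for 12 tested members that were lower (38.7%) and 8 that were higher (25.8%), beside 12.0% and 10.8% of all tested genes. With the replicate number as a block, 14 members fell and 8 rose, beside 12.5% and 11.8% of all tested genes. DESeq2 called 12 lower and 6 higher, beside 3.84% and 2.09% of the 22686 genes it tested. Its calls include members that edgeR did not test, such as MAGEB1 and MAGEB16, so the 12 and 6 are not out of the 31. At an adjusted p under 0.001 with a log2 change beyond 1 in size, 4 were lower and 2 higher, beside 0.443% and 0.0350%. In the plain comparison 6 of the tested members passed the count filter through WT alone (CTAG2, GAGE12J, MAGEC2, PAGE5, SPANXB1, XAGE2) and 1 through PARP3-/- alone (PABPC5), so a difference was a condition of their being tested.

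**Figure D1:**
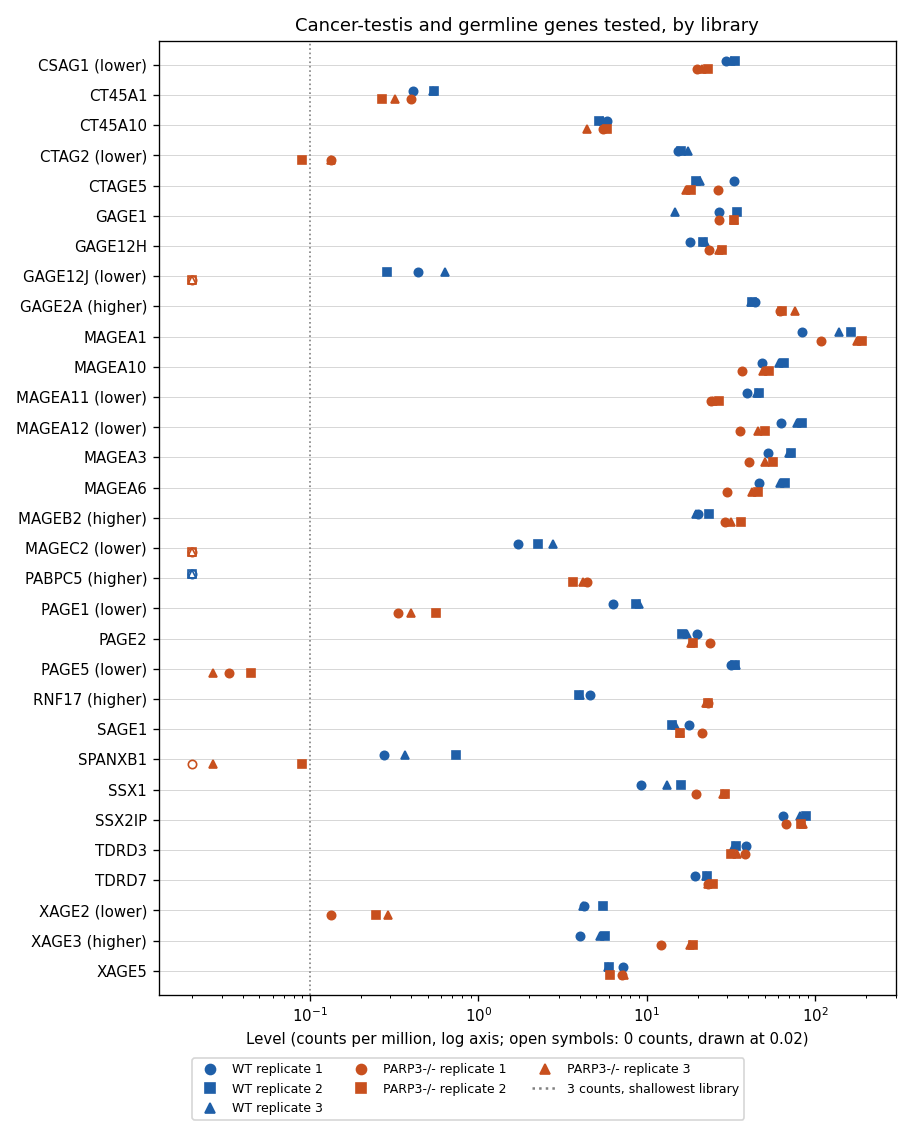
Level of each of the 31 tested genes in each library, in CPM on a log axis, WT in blue and PARP3-/- in orange, with the replicate given by the symbol. Open symbols at 0.02 stand for 0 counts. PAGE5, CTAG2, PAGE1, XAGE2 and MAGEC2 lie far lower in all 3 PARP3-/- libraries, RNF17 and PABPC5 far higher, and most MAGEA genes lie close together.

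**Figure D2:**
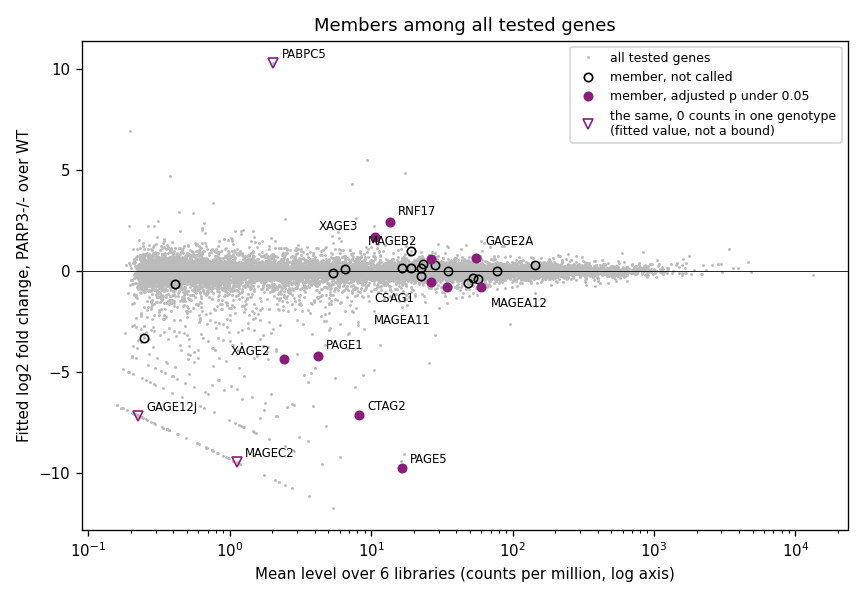
Fitted log2 fold change, PARP3-/- over WT, against mean level (CPM, log axis) for all 17144 tested genes in grey and the 31 members in black or purple. The 9 members that fell and the 5 that rose are named, and open triangles mark the 3 that had 0 counts throughout a genotype, whose fitted values are not bounds.

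The PAGE genes lie on the X chromosome and encode small acidic proteins of the GAGE superfamily. PAGE5 (ENSG00000158639, X:55220355-55224108 on hg38) was counted 1152, 1409 and 1391 times in WT and 1, 2 and 1 times in PARP3-/-. The fall was from 33.0 ± 1.28 to 0.0349 ± 0.00933 CPM (SD, n = 3), the latter below the 3 counts taken as the smallest level told from no reads. The ratio of the summed counts, scaled to library size, was 930 (95% counting interval 363 to 3415), and edgeR gave an adjusted p of 1.73e-06. Per kilobase of transcript PAGE5 was at rank 4 of the 69 genes in WT, with 61.1 CPM per kb, and at rank 33 in PARP3-/-, with 0.0645.

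PAGE1 (ENSG00000068985), counted 229, 363 and 368 times in WT, kept 10, 25 and 15 counts in PARP3-/- (log2 fold change -4.17, SE 0.25, adjusted p = 0.000348). PAGE2 (ENSG00000234068), which lies 128 kb from PAGE5, had 730, 682 and 706 counts in WT and 710, 832 and 695 in PARP3-/-. The PAGE2 libraries overlapped, and the log2 fold change of 0.18 (SE 0.13) had an adjusted p of 0.610. The make-up of the family thus changed with its sum. PAGE5 supplied 56.1 ± 1.48% of all PAGE counts in WT and 0.171 ± 0.0538% in PARP3-/-, while PAGE2 went from 30.3 ± 3.67% to 97.6 ± 0.809% (SD, n = 3). Summed over the 6 PAGE genes the level fell from 58.8 ± 1.14 to 20.7 ± 2.82 CPM (log2 fold change -1.51, SE 0.11, adjusted p = 0.000637). Family sums were tested in a table where they replaced their members, in which 3.27% of rows fell and 1.34% rose.

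The XAGE genes, relatives of GAGE and PAGE, moved in opposite directions. XAGE2 (ENSG00000155622) had 155, 231 and 171 counts in WT and 4, 11 and 11 in PARP3-/- (log2 fold change -4.32, SE 0.27, adjusted p = 0.00039). XAGE3 (ENSG00000171402), 487 kb away, had 147, 238 and 216 counts in WT and 367, 835 and 685 in PARP3-/- (log2 fold change 1.71, SE 0.21, adjusted p = 0.00548). Neither gene had overlapping libraries. XAGE5, 44.2 kb from XAGE3, stayed between 240 and 262 counts in WT and between 215 and 276 in PARP3-/- (log2 fold change 0.11, SE 0.14, adjusted p = 0.822). As a share of the XAGE counts, XAGE2 went from 28.9 ± 2.69% to 0.934 ± 0.229% and XAGE3 from 31.2 ± 4.48% to 69.4 ± 6.24% (SD, n = 3). The summed XAGE level was 16.0 ± 1.05 CPM in WT and 23.4 ± 3.44 in PARP3-/-, with an adjusted p of 0.0612, or 0.000702 with the replicate block.

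The GAGE genes are near-identical tandem copies, so their counts are uncertain one by one. In the GENCODE 44 transcripts, 9.77% of all 50-base windows of GAGE12J and of GAGE12H and 13.9% of those of GAGE2A occurred in no other gene, leaving aside genes that overlap in position. For GAGE2A this leaves windows shared with GAGE1 uncounted, so its 13.9% is an upper limit. GAGE12J (ENSG00000224659) had 16, 12 and 26 counts in WT and 0, 0 and 0 in PARP3-/-, at least 5.51-fold lower against 3 counts per library (adjusted p = 0.0234). The call was lost without WT replicate 3, PARP3-/- replicate 2 or PARP3-/- replicate 3 (adjusted p = 0.0843, 0.0700 and 0.0598). GAGE2A (ENSG00000189064), at 1595, 1780 and 1710 counts in WT, rose to 1862, 2830 and 2864 counts (log2 fold change 0.65, SE 0.10, adjusted p = 0.0120). That call was lost without WT replicate 2 or 3 (adjusted p = 0.0506 and 0.0811). GAGE12H was at 660, 902 and 904 counts in WT and 706, 1250 and 1014 in PARP3-/- (log2 fold change 0.35, SE 0.11, adjusted p = 0.174, and 0.00195 with the block). GAGE1 and GAGE2A also overlap in position. The GAGE sum was 89.0 ± 9.75 CPM in WT and 124 ± 11.9 in PARP3-/-, without overlap between libraries (log2 fold change 0.48, SE 0.11, adjusted p = 0.0648, and 0.00133 with the block). Per kilobase, GAGE2A was the highest of the 69 genes in both genotypes, at 80.7 and 127 CPM per kb.

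**Figure D3:**
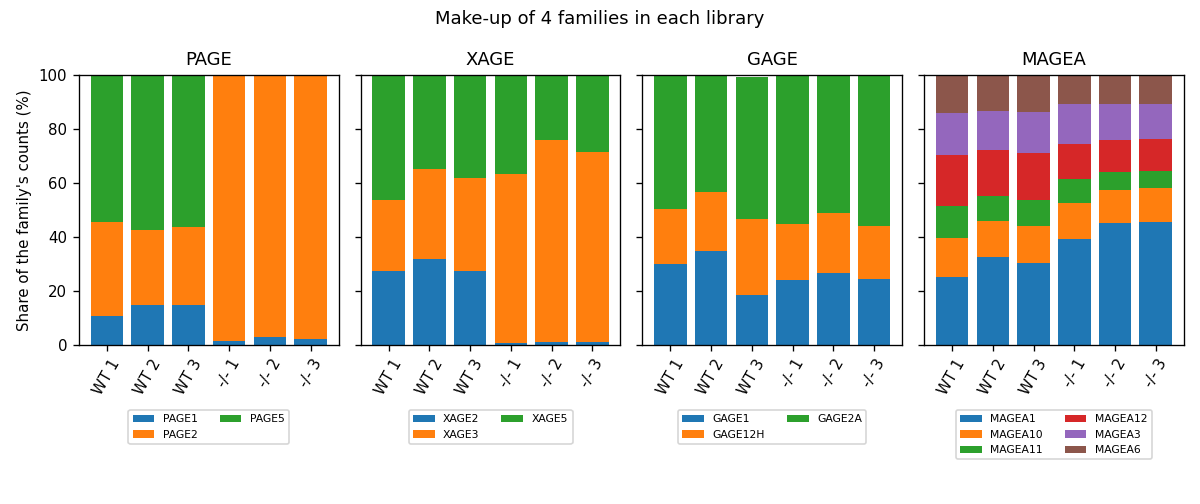
Share of the counts of each family taken by its members, in percent, in each library, for the PAGE, XAGE, GAGE and MAGEA families; -/- stands for PARP3-/-, and members with a mean share under 1% in both genotypes are not drawn. PAGE5 and XAGE2 make up a large part of their families in the 3 WT libraries and almost none in the 3 PARP3-/- libraries, while GAGE2A takes 48.2% and 53.9% of the GAGE counts on average.

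CTAG2 encodes LAGE-1, a relative of the tumour antigen NY-ESO-1. It had 559, 669 and 720 counts in WT and 4, 4 and 5 in PARP3-/- (ENSG00000126890, log2 fold change -7.09, SE 0.18, adjusted p = 1.19e-05). Of its windows, 43.1% are shared with CTAG1B, which was not analysed here. MAGEC2 (ENSG00000046774, X:142202345-142205290), a cancer-testis antigen that binds the corepressor TRIM28, had 63, 95 and 113 counts in WT and 0 in every PARP3-/- library. It was at least 27.4-fold lower against 3 counts per library (adjusted p = 0.00245). Both losses were complete or nearly so in all 3 libraries and held when any library was left out. MAGEC1 had 5, 2 and 10 counts in WT and 0 in PARP3-/-, too few to be tested. SPANXB1, which belongs to a family of sperm nucleus proteins, had 10, 31 and 15 counts in WT and 0, 4 and 1 in PARP3-/-. Its libraries did not overlap, but the log2 fold change of -3.31 (SE 0.74) had an adjusted p of 0.0556, or 0.000722 with the block and 0.0423 without WT replicate 1.

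The MAGEA genes were the most abundant family, at a summed 428 ± 85.0 CPM in WT and 363 ± 76.6 in PARP3-/- (SD, n = 3). They encode adaptors of RING ubiquitin ligases. MAGEA11 (ENSG00000185247), a known coregulator of the androgen receptor, had 1433, 1942 and 1851 counts in WT and 726, 1202 and 928 in PARP3-/- (log2 fold change -0.79, SE 0.09, adjusted p = 0.00500), and the call held whichever library was left out. MAGEA12 (ENSG00000213401) had 2301, 3519 and 3178 counts in WT and 1081, 2244 and 1733 in PARP3-/- (log2 fold change -0.76, SE 0.16, adjusted p = 0.0426). CSAG1 (ENSG00000198930), a cancer-testis gene that starts 0.044 kb from MAGEA12 on the other strand, had 1073, 1407 and 1291 counts in WT and 598, 1028 and 803 in PARP3-/- (log2 fold change -0.56, SE 0.09, adjusted p = 0.0185). In CPM the libraries of all 3 genes were separate between the genotypes. MAGEA12 overlaps the pseudogene CSAG4, which had 57, 41 and 37 counts in WT and 19, 35 and 19 in PARP3-/-. The calls of MAGEA12 and CSAG1 were kept without WT replicate 1 and lost on leaving out each of the other 5 libraries, at adjusted p values of 0.0693 to 0.178 for MAGEA12 and 0.0501 to 0.109 for CSAG1.

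MAGEA1, the founding tumour antigen of the family and its most abundant member in counts, went the other way without being called. It had 3066, 6822 and 5662 counts in WT and 3277, 8481 and 6705 in PARP3-/- (log2 fold change 0.31, SE 0.29, adjusted p = 0.716, and 0.00113 with the block). MAGEA10, MAGEA3 and MAGEA6 were lower by log2 fold changes of -0.34, -0.40 and -0.57, none past the threshold without the block (adjusted p = 0.396, 0.292 and 0.196) and all with it (0.00064, 0.000275 and 1.97e-05). The 3 pairs of equal replicate number gave log2 ratios (with 0.1 CPM added) of -0.36, -0.36 and -0.48 for MAGEA3 and of -0.62, -0.53 and -0.56 for MAGEA6, and of 0.37, 0.23 and 0.36 for MAGEA1. Of the 50-base windows of MAGEA3 and MAGEA6, 44.2% and 46.3% were found in no other gene, leaving aside genes that overlap in position. Their sum went from 123 ± 21.5 to 88.4 ± 16.1 CPM (adjusted p = 0.237, and 4.5e-05 with the block). The sum of all 10 MAGEA genes gave an adjusted p of 0.678 (log2 fold change -0.24, SE 0.20), or 0.00607 with the block. Within it MAGEA1 took 29.4 ± 3.84% of counts in WT and 43.3 ± 3.47% in PARP3-/-.

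**Figure D4:**
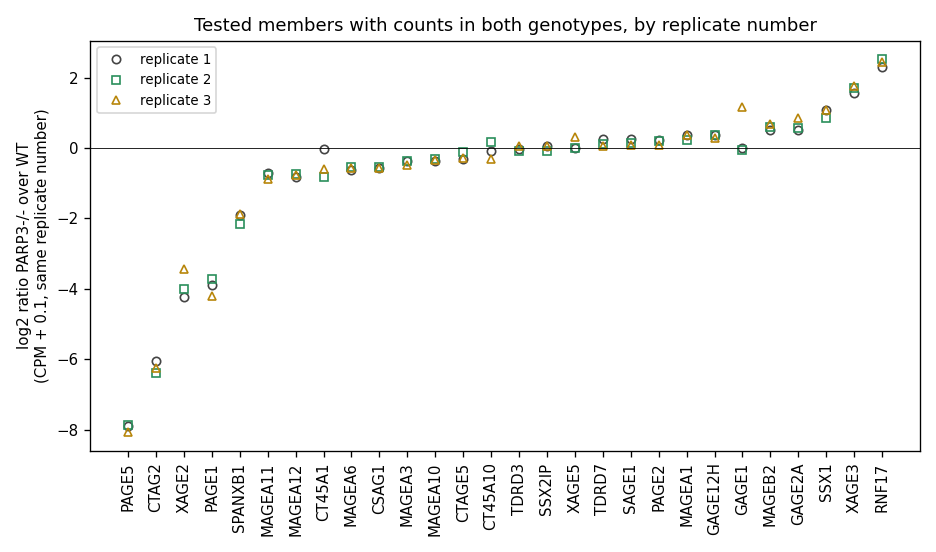
Log2 ratio of PARP3-/- over WT between libraries of the same replicate number (0.1 CPM added), for the 28 tested members with counts in both genotypes, ordered by fold change. The 3 ratios of a gene lie close together for most genes, on the same side of 0 for all MAGEA genes, and spread most for GAGE1, from -0.06 to 1.16.

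MAGEB2 (ENSG00000099399), a MAGE gene of Xp21, rose from 737, 988 and 798 counts in WT to 873, 1604 and 1188 in PARP3-/- (log2 fold change 0.61, SE 0.12, adjusted p = 0.0323). The genotypes did not overlap in CPM, but the call was lost without WT replicate 1 or 3 or PARP3-/- replicate 2 or 3, at adjusted p values of 0.0551, 0.160, 0.129 and 0.125. It supplied 98.4% of the counts of the 9 MAGEB genes in WT and 99.6% in PARP3-/-. MAGEB1 and MAGEB16, not tested by edgeR and named after their values were seen, each had 4, 6 and 8 counts in WT and 0 in every PARP3-/- library, and DESeq2 called both lower (adjusted p = 0.0266). SSX1, a transcriptional repressor known from the fusion oncogene of synovial sarcoma, had 336, 673 and 544 counts in WT and 592, 1306 and 1072 in PARP3-/-. In CPM the SSX1 libraries did not overlap, and the log2 fold change was 1.01 (SE 0.23, adjusted p = 0.0644). The gene was called with the block (adjusted p = 4.09e-06) and without PARP3-/- replicate 1 (0.0410). The other SSX genes had at most 5 counts.

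RNF17 (ENSG00000132972, 13:24764152-24879921), a tudor and RING finger protein of male germ cells that acts in the piRNA pathway, is the autosomal member that was called. It had 168, 166 and 164 counts in WT and 695, 1034 and 844 in PARP3-/-. Its level rose from 4.19 ± 0.361 to 22.9 ± 0.467 CPM (SD, n = 3; log2 fold change 2.45, SE 0.10, adjusted p = 9.83e-05), and the PARP3-/- libraries lay together, well above WT. PABPC5 (ENSG00000174740, X:91434595-91438584), a poly(A)-binding protein gene without introns in its coding part, had 0 counts in all 3 WT libraries and 133, 163 and 157 in PARP3-/-. It was at least 53.9-fold higher against 3 counts per library (adjusted p = 0.000612). PABPC5-AS1, which overlaps PABPC5, had 2, 3 and 0 counts in WT and 16, 12 and 9 in PARP3-/-. Whether counting used the strand is not given in the sources used here, so reads of the overlap cannot be told apart. Both calls held whichever library was left out.

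Apart from TDRD3 and TDRD7, the other germline genes were at or near the limit of detection. DDX4, the germ cell helicase, had 0, 1 and 0 counts in WT and 1, 0 and 0 in PARP3-/-, and MAEL 0, 0 and 1 against 0, 0 and 2. SYCP3 had 6, 9 and 8 counts in WT and 4, 7 and 2 in PARP3-/-, and in CPM its libraries did not overlap, from 0.164 to 0.214 in WT and from 0.0529 to 0.157 in PARP3-/-. These 3 genes had too few counts to be tested by edgeR. PIWIL4, the most counted PIWI gene, had 7, 2 and 5 counts in WT and 13, 12 and 6 in PARP3-/-, and the sum of the PIWIL genes, 0.212 ± 0.0555 against 0.426 ± 0.0955 CPM, had an adjusted p of 0.164. Of the TDRD genes, TDRD3 and TDRD7 carried nearly all counts, and neither was called (log2 fold change -0.01 and 0.13, adjusted p = 0.977 and 0.581). Among the 38 genes not tested, 22 had at most 3 counts in every library, and the highest count in any library was the 13 of PIWIL4.

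SAGE1 and CT45A10, which lie 0.119 kb apart, were not called and had overlapping libraries. SAGE1 had 654, 591 and 607 counts in WT and 640, 697 and 596 in PARP3-/- (log2 fold change 0.17, SE 0.16, adjusted p = 0.714), and CT45A10 had 211, 218 and 225 against 165, 260 and 166 (log2 fold change -0.07, SE 0.15, adjusted p = 0.908). SSX2IP, a centrosome protein named for its binding to SSX2, was at 77.8 ± 12.4 and 78.0 ± 9.80 CPM (adjusted p = 0.998). CTAGE5, a secretory pathway gene, had a log2 fold change of -0.25 (adjusted p = 0.744, and 0.0263 with the block), which turned to 0.03 without WT replicate 1.

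**Figure D5:**
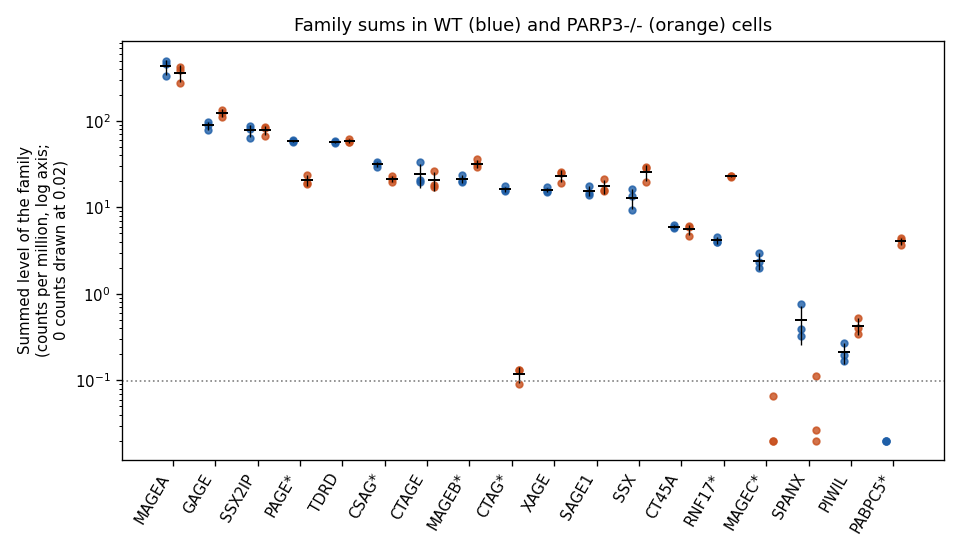
Summed level of each tested family in CPM (log axis), WT in blue and PARP3-/- in orange, with each library as a point, the mean as a bar and the SD as a line where no library is at 0; sums of 0 are drawn at 0.02, and the dotted line marks 3 counts in the shallowest library. An asterisk marks an adjusted p under 0.05. PAGE, CTAG, MAGEC and CSAG fell, and MAGEB, RNF17 and PABPC5 rose.

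Of the 18 families or lone genes that could be tested as sums, 4 fell (PAGE, CTAG, MAGEC and CSAG) and 3 rose (MAGEB, RNF17 and PABPC5). Of all rows tested with the sums, 3.27% fell and 1.34% rose. CTAG, RNF17 and PABPC5 had 1 member each. The CSAG, MAGEB and MAGEC sums largely repeat CSAG1, MAGEB2 and MAGEC2, which held on average 99.3%, 98.4% and 92.4% of the WT counts. In the 6 fits that left out 1 library, the CSAG sum kept its call in 1 and the MAGEB sum in 2. MAGEC fell from 72, 97 and 123 counts in WT to 2, 0 and 0 in PARP3-/- (log2 fold change -6.85, SE 0.60, adjusted p = 0.00154). The block added the MAGEA, SPANX and CTAGE sums to those that fell and the GAGE, XAGE and SSX sums to those that rose.

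Tested neighbours within 500 kb were counted for each called gene, and their counts are read beside the 3.33% of all tested genes that fell and the 1.36% that rose. Counts at an unadjusted p under 0.05 are read beside 2788 of all 17144 tested genes. Of the 11 neighbours of PAGE5, 1 also fell (4 were at an unadjusted p under 0.05, and DESeq2 called 2), the pseudogene AL158819.1 with 46, 74 and 60 counts in WT and 0 in PARP3-/-. Around CTAG2, 1 of 25 fell (FAM3A, log2 fold change -0.35; 3 at an unadjusted p under 0.05, and 1 called by DESeq2), and around MAGEA11 edgeR and DESeq2 called 0 of 8 (1 at an unadjusted p under 0.05). CSAG1 and MAGEA12 had 10 tested neighbours each, of which 3 fell, namely each other, NSDHL and CETN2 (log2 fold change -0.49 and -0.54), and the median over the 10 was -0.44 (6 at an unadjusted p under 0.05, and 3 called by DESeq2). The 10 include related genes, so they do not describe unrelated neighbours alone. Among them were MAGEA3, MAGEA6 and the pseudogene CSAG4 (edgeR, unadjusted p = 0.0449, 0.0218 and 0.0274), and MAGEA1, which was higher. XAGE2 had the rising XAGE3 among its 4 tested neighbours and no called neighbour that fell. PAGE1, with 11 tested neighbours, and GAGE12J, with 24, lay in each other's windows, so each had 1 neighbour that fell and 1 that rose, GAGE2A. RNF17 had 8 tested neighbours, of which edgeR called 0 (2 at an unadjusted p under 0.05, and 1 called by DESeq2), and both tools called 0 of the 3 around MAGEB2 (0 at an unadjusted p under 0.05), while MAGEC2 and PABPC5 had no tested neighbour. Over the X chromosome, 33 of 575 tested genes outside the 69 fell and 10 rose, with a median log2 fold change of -0.02.

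Outside the coding families, BAGE2, annotated as a transcribed pseudogene of the BAGE antigen family, had 272, 303 and 282 counts in WT and 0, 1 and 1 in PARP3-/-. The ratio of its summed counts was 403 (95% counting interval 111 to 3335). SSX9, a transcribed pseudogene, rose from 39, 47 and 43 to 57, 78 and 72 counts (log2 fold change 0.77, SE 0.15, adjusted p = 0.0391). Of a list of 33 other cancer-testis genes, 24 were listed and 9 tested by edgeR. Of those 9, 2 fell and 0 rose by edgeR (6 were at an unadjusted p under 0.05). DESeq2 called 4 of the listed genes lower and 1 higher. PRAME, which edgeR did not test, is among the 4. Of all tested genes, 3.33% fell and 1.36% rose by edgeR, and 3.84% and 2.09% by DESeq2. By edgeR, 2788 of all 17144 tested genes were at an unadjusted p under 0.05. Both genes that fell were under the 0.254 CPM of the count filter in every PARP3-/- library and so were tested through WT alone. They were FMR1NB, with 319, 575 and 565 counts in WT and 0, 1 and 1 in PARP3-/- (ratio 687, 95% counting interval 190 to 5675), and CT83, with 14, 13 and 11 counts in WT and 0 in PARP3-/- (at least 3.90-fold lower, adjusted p = 0.0141).

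The next lists are also read beside the 3.33% of all tested genes that fell and the 1.36% that rose. Of the MAGE genes expressed in many tissues, 7 were tested and 1 fell, MAGEE1, with 52, 94 and 90 counts in WT and 6, 6 and 5 in PARP3-/- (log2 fold change -3.66, SE 0.31, adjusted p = 0.00129). MAGEE1 too was under 0.254 CPM in every PARP3-/- library and was tested through WT alone. Of 5 tested piRNA pathway genes outside the 69, 1 rose, GTSF1, a cofactor of PIWI proteins, from 650, 712 and 607 to 823, 1247 and 954 counts (log2 fold change 0.70, SE 0.10, adjusted p = 0.00971). Of 9 tested meiosis genes, 1 rose, STAG3, the meiotic cohesin subunit, from 404, 513 and 431 to 449, 709 and 593 counts (log2 fold change 0.46, SE 0.10, adjusted p = 0.0461).

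The RNA of a list of repressors known to silence germline genes showed no call by edgeR without the block. The list also holds the DNA demethylases TET1, TET2 and TET3, which are not repressors. Of its 35 tested genes, 0 were called by edgeR without the block (2 at an unadjusted p under 0.05), and 5 fell and 2 rose with it. The 1 gene called by DESeq2 was TET1 (log2 fold change -0.48, adjusted p = 0.0229), which also fell by edgeR with the block (adjusted p = 0.00586). Without the block 3.33% of all tested genes fell and 1.36% rose, and with it 12.5% and 11.8%, so neither count of the list stood far from that of all genes. At an unadjusted p under 0.05 without the block were 2788 of all 17144 tested genes. The DNA methyltransferases DNMT1, DNMT3A and DNMT3B had log2 fold changes of 0.11, -0.16 and -0.36 (adjusted p = 0.857, 0.734 and 0.529). UHRF1, which guides DNMT1 to replicated DNA, had 0.28 (adjusted p = 0.856), and the histone methyltransferases EHMT2 and SETDB1 had 0.06 and 0.14 (adjusted p = 0.762 and 0.787). MGA, E2F6 and PCGF6, subunits of a polycomb complex that represses germline genes, had 0.21, -0.04 and -0.14 (adjusted p = 0.338, 0.956 and 0.767). Of these, DNMT3B (0.0184), MGA (0.00993) and UHRF1 (0.00411) passed the threshold with the block, as adjusted p values. CBX3, MAX and PPHLN1, also on the list, fell with the block by log2 fold changes of -0.34, -0.22 and -0.17. Their adjusted p values by edgeR with the block were 0.000823, 0.0404 and 0.0322.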

How the data were processed

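The authors removed adapters with cutadapt 1.10, discarded reads on ribosomal RNA and spike-ins with Bowtie2 2.2.8, aligned to hg38 with STAR 2.5.3a and counted reads per Ensembl gene with HTSeq 0.6.1p1. The deposited values used here are these raw counts, not normalized, in 6 libraries of 29692065 to 46010369 counts. Labels name polyA RNA, while the protocol describes rRNA-depleted total RNA. A further 12 columns of values per sample and the columns of the authors' own DESeq2 1.16.1 comparison (fold changes and p-values) were not used. HTSeq leaves out reads aligned to several places and, in union mode, reads overlapping several genes. Counts of near-identical copies therefore rest on uniquely placed reads.

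Counts were fitted in R 4.3.3 with edgeR 4.0.16 (TMM, filterByExpr with a minimum count of 10, quasi-likelihood test without block), and Benjamini-Hochberg adjustment ran over all 17144 tested genes. A gene was called at an adjusted p under 0.05. SEs were derived from fold change and F statistic. Alternatives were DESeq2 1.42.0, RLE size factors, no filter, a replicate block, each library left out, an adjusted p under 0.001 with a log2 fold change beyond 1, and sums of near-identical copies alone. Leaving out replicate 1 of both genotypes, and summing SSX2IP with SSX, were added after seeing the data. SSX2IP was kept apart from the SSX family although its symbol begins alike. Replicate numbers come from the labels, and deviations from the genotype means correlated between libraries of the same number (r = 0.788, 0.680 and 0.383), which was taken as pairing. The correlations separate replicate 1 from replicates 2 and 3 rather than 2 from 3, since WT replicate 2 with PARP3-/- replicate 3 gave 0.575 and WT replicate 3 with PARP3-/- replicate 2 gave 0.367. Counting intervals (95%) and the floor of 3 counts (0.0673 to 0.0996 CPM) cover counting error only. On simulated counts, edgeR recovered 190 of 200 genes changed 4-fold, with 15 false calls among 17160 tested, and DESeq2 recovered 189, with 48 among 21576. The simulated libraries were drawn independently, without the shift of replicate 1 seen in both genotypes, so they do not show how the fits behave under it. The members and lists were chosen with earlier results of these data known. Members were named where called with or without the block, where most abundant in their family, or where the rule gave them by symbol. MAGEC1, GAGE12H beside GAGE12J, XAGE5, BAGE2, SSX9, CBX3, MAX, PPHLN1 and the neighbouring genes were named after their values were seen. Promoters are RefSeq windows (GRCh38.p14), aligned with Biopython 1.88, and shared windows were sought in GENCODE 44 transcripts of genes that do not overlap in position. Figures were drawn with matplotlib 3.10.9.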

Additional observations from a re-analysis of the deposited data

How the results depend on the processing

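For the count of members that fell (9), the replicate block gave 14 and the stricter threshold (adjusted p under 0.001, log2 change beyond 1 in size) gave 4, beside 0.443% of all tested genes. Leaving out 1 library gave 6 (without WT replicate 3 and without PARP3-/- replicate 2 or 3) to 10 (without WT replicate 1), and leaving out replicate 1 of both genotypes gave 13. For the members that rose (5), the block gave 8, the stricter threshold 2 (beside 0.0350% of all tested genes), and leaving out 1 library 3 (without WT replicate 3) to 6 (without PARP3-/- replicate 1). Without replicate 1 of both genotypes it was 8. DESeq2 called 12 that fell and 6 that rose, no filter 12 and 6, and RLE size factors 9 and 5. For the family sums that fell (4), the block gave 7, the stricter threshold 2, and leaving out libraries 3 to 6. For the family sums that rose (3), DESeq2, no filter and the block gave 6 each, and leaving out libraries 2 to 6. Where near-identical copies alone were summed, all other members stayed single genes, and 8 rows fell. That 8 is not a count of families. No summed group of copies was called there, the lowest adjusted p by edgeR being 0.0581 for SPANX and 0.0642 for GAGE. Summing SSX2IP with SSX changed neither count. The causes were not tested. No direction of a gene or family sum called without the block was reversed in any of these fits, while CTAGE5 and the CTAGE sum, called lower with the block alone, had a log2 fold change of 0.03 without WT replicate 1. The block ended no call, and beyond the calls it added to the members and sums named above it changed none of theirs. CTAG2, MAGEA11, MAGEC2, PABPC5, PAGE1, PAGE5, RNF17, XAGE2 and XAGE3 were called in each of the 6 fits that left out 1 library. Genes with under 3 counts in each library of a genotype are limited by depth.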
